A study of Mus musculus with 6 samples.

Results

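The genes described here encode the SR proteins and the hnRNP proteins, the main families of RNA-binding regulators of pre-mRNA splicing. They were chosen by name: every row of the table whose symbol begins with Hnrnp, or with Srsf followed by a digit, was taken, and rows marked -ps (0 found) were to be left out. The rule gave 31 of 18019 genes, 11 SR and 20 hnRNP. RNA came from RAW264.7, a transformed mouse macrophage line, and polyadenylated transcripts were sequenced. All libraries came from cells induced with lipopolysaccharide (LPS), a bacterial product that activates macrophages. The control group (n = 3) received no further agent, and the other group (n = 3) was treated with TPPU, an inhibitor of soluble epoxide hydrolase, which degrades fatty acid epoxides. The labels used here state no dose or time. They also leave unsaid whether a group's libraries derive from separate cultures, so the p-values below measure only a spread between libraries that may be technical. A single transformed line is a limited model of tissue macrophages.

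SR proteins carry RNA recognition motifs and a tail rich in arginine and serine. Bound to enhancer sequences in exons, they help the spliceosome to recognise nearby splice sites, and kinases of the SRPK and CLK families control them by phosphorylating that tail. The hnRNP proteins coat nascent transcripts, many of them through RNA recognition or KH domains, and many oppose exon inclusion. Both families are known to limit their own levels by splicing their transcripts into forms that nonsense-mediated decay removes, and several hnRNP proteins act on the processing, stability or translation of cytokine mRNAs in macrophages.

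Sequence features that set the families apart are visible in the coding sequences of the GENCODE M21 annotation (mm10). Of the 10 SR genes expressed enough to be tested (all but Srsf12), 9 had at least 10 pairs of adjacent arginine and serine codons, in either order. The same held for 2 of the 20 hnRNP genes and for 14.8% of all tested genes with a coding sequence. It also held for 19 of 20 SR-related genes taken up below. Of the 10 SR genes, Srsf4 had the most, 106 such pairs, and Srsf9 the fewest, 9. The hnRNP genes were instead rich in glycine codons, with a median of 13.7% of codons against 6.22% over all tested genes. The stretches of 20 codons below are shown as examples of the arginine-serine tails, those of Srsf4 (chr4:131897840-131900089, plus strand, 2 exons) and Srsf9 (chr5:115332594-115332653, plus strand, 1 exon) being those with the most arginine-serine pairs in each gene, in capitals. The stretch of Srsf4 holds 13 pairs and that of Srsf9 holds 6.
Srsf4: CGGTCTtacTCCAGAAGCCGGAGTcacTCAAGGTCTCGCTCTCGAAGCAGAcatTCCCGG
Srsf9: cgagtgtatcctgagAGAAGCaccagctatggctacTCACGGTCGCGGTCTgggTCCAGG

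Annotated decay isoforms were common in the SR family. A transcript classed as a target of nonsense-mediated decay was annotated for 9 of the same 10 SR genes (Srsf10 was the exception) and for 10 of the 20 hnRNP genes, against 30% of all tested genes with an annotation. The same was true of 13 of 20 SR-related genes taken up below. SR and hnRNP genes also had more annotated transcripts, with medians of 7.5 and 8 against 5 over all tested genes. Each deposited value is a single level per gene, so productive and decay isoforms cannot be told apart, and a shift between them without a change in the total would not be seen.

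Levels are in FPKM, the fragments on a gene divided by its length in kilobases and by the fragments of the whole library. Low FPKM values stepped in whole fragments in genes with 1 transcript and gave estimated depths of 18 to 23.2 M (mega) fragments, at which 1 fragment in 1 kb is worth 0.0432 to 0.0557 FPKM. The 8 macrophage markers summed to 1920 to 2307 FPKM in control and 2033 to 2155 with TPPU. Marker genes of T and B cells in the table stayed under 1 FPKM in every library, as did Epcam, an epithelial marker, and the summed fibroblast markers were at 0.727 to 3.88 FPKM. The 5 genes listed as induced by LPS summed to 1872 to 2185 in control and 1696 to 1869 with TPPU, and Ptgs2 made up most of each sum. Group means, control against TPPU, were 1479 and 1413 for Ptgs2, 317 and 178 for Tnf, and 118 and 97.3 for Nos2. For Il1b they were 44.2 and 46.3, and for Il6 30.2 and 30. Within control, Tnf ran from 176 to 452 and Il6 from 8.45 to 47.8. With TPPU, Tnf ran from 165 to 185 and Il6 from 11 to 43.1. The lowest Il6 values were those of control replicate 3 and TPPU replicate 1. Control replicate 3 stood apart: its correlation with the other 5 libraries over all tested genes was 0.958 to 0.977, against 0.982 to 0.991 among those 5. Estimates without it are given for many of the genes below and plotted for all 30 tested genes. In the labels of the TPPU samples the name sh-LIS1 also appears, for a column of a table not used here. Pafah1b1, the LIS1 gene, stood at 11.7, 14.2 and 6.52 in control against 10.7, 13.5 and 14.2 with TPPU. Ephx2, which encodes the enzyme that TPPU inhibits, was low, at 0.447 to 0.865 in control and 0.42 to 2.56 with TPPU.

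No SR or hnRNP gene passed the test for a change with TPPU. Of the 30 genes that passed the filter (at least 1 FPKM in at least 3 of 6 libraries), 0 passed an adjusted p of 0.05 in limma, as for all 9728 tested genes (0% called). At an unadjusted p under 0.05 there were again 0 of 30, against 7.89% of all tested genes. The median log2 change, TPPU minus control on the log2(FPKM + 1) scale, was -0.0025 over the 10 SR genes and -0.03 over the 20 hnRNP genes, beside 0.02 over all tested genes. Of the SR genes 5 had a positive and 5 a negative change, and of the hnRNP genes 8 and 12. In bulk RNA, fewer cells of a type and less RNA per cell cannot be told apart.

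The intervals give the size of change that these libraries leave possible. The 95% intervals of all 30 changes included 0, with half-widths from 0.19 to 0.71. For 29 of the 30 the interval lay within a 2-fold change in either direction, and for 21 within 0.5 on the log2 scale. Hnrnpll was the gene whose interval reached past 2-fold, to 1.13. These counts hold on the log2(FPKM + 1) scale, which understates changes of low genes. With an offset of 0.1 FPKM in place of 1, 28 intervals lay within 2-fold, and that of Srsf10 reached 1.015. Without control replicate 3 all 30 lay within 2-fold and 26 were narrower than with it. Dropping any other single library left 28 or 29 within 2-fold, and 17 to 20 within 0.5 on the log2 scale. Srsf10 joined Hnrnpll past 2-fold when TPPU replicate 1 was dropped, its interval reaching 1.023. Its interval reached 1.015 when control replicate 1 was dropped, and 1.013 in the fit lacking control replicate 2.

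**Figure D1:**
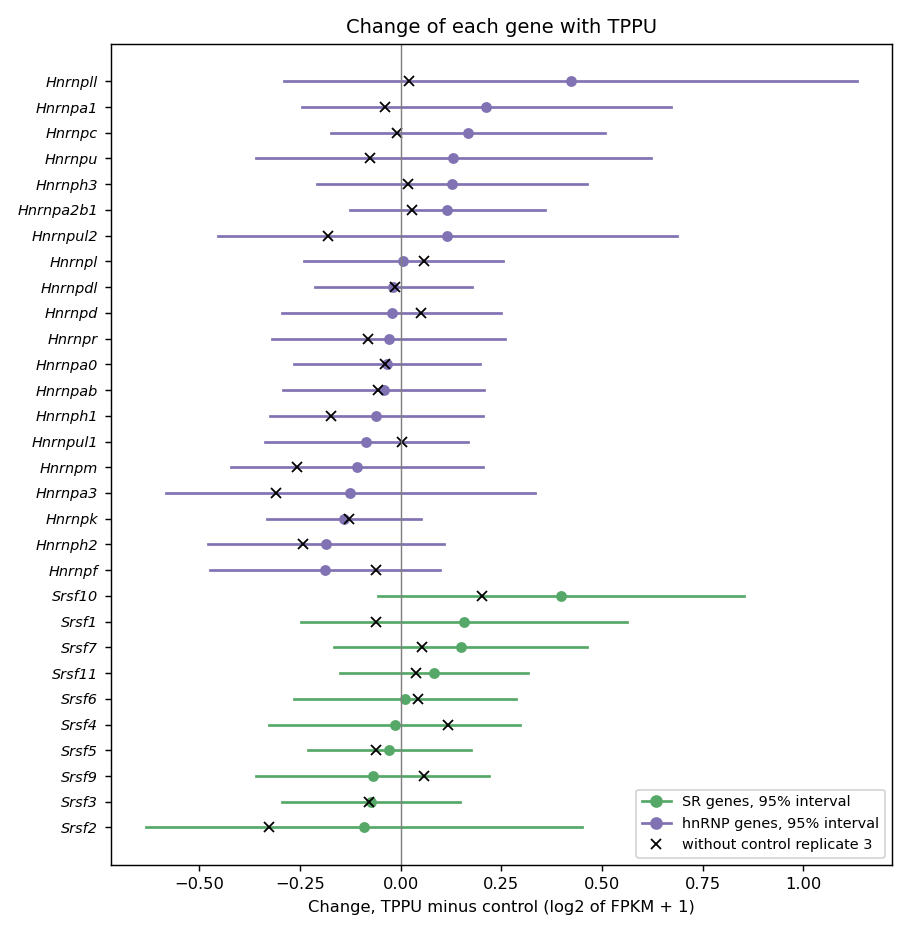
Change of each of the 30 tested genes with TPPU (horizontal axis, TPPU minus control in log2 of FPKM + 1). Filled circles are the estimates over 3 and 3 libraries, lines their 95% intervals from limma, and crosses the estimates without control replicate 3. Every interval crosses 0.

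The share of the transcriptome taken by either family overlapped between the groups. The SR genes summed to 0.0659%, 0.0586% and 0.0549% of all FPKM in control replicates 1, 2 and 3, and to 0.0557%, 0.0607% and 0.0608% in TPPU replicates 1, 2 and 3. For the hnRNP genes the shares were 0.234%, 0.236% and 0.201% in control, and 0.215%, 0.217% and 0.237% with TPPU. Control replicate 3 was the lowest of the 6 values in each family, and control replicate 1 (SR) and TPPU replicate 3 (hnRNP) were the highest.

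The median level over the 6 libraries was 14.7 FPKM for SR genes and 23.7 for hnRNP genes, against 8.11 for all tested genes. Levels within a family spanned a wide range, and its most abundant genes led it in both groups. On the FPKM scale, which is per length, Srsf2 and Srsf5 led the SR family with 19.8% and 18.3% of its summed control level. Hnrnpa1, Hnrnpc, Hnrnpf and Hnrnpk led the hnRNP family with 18%, 12.8%, 12.1% and 10.2% in control, and 20.2%, 14%, 10.4% and 9.17% with TPPU. At the other end, Hnrnpr measured 1.98 ± 0.202 FPKM in control and 1.92 ± 0.137 with TPPU (SD, n = 3 each).

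**Figure D2:**
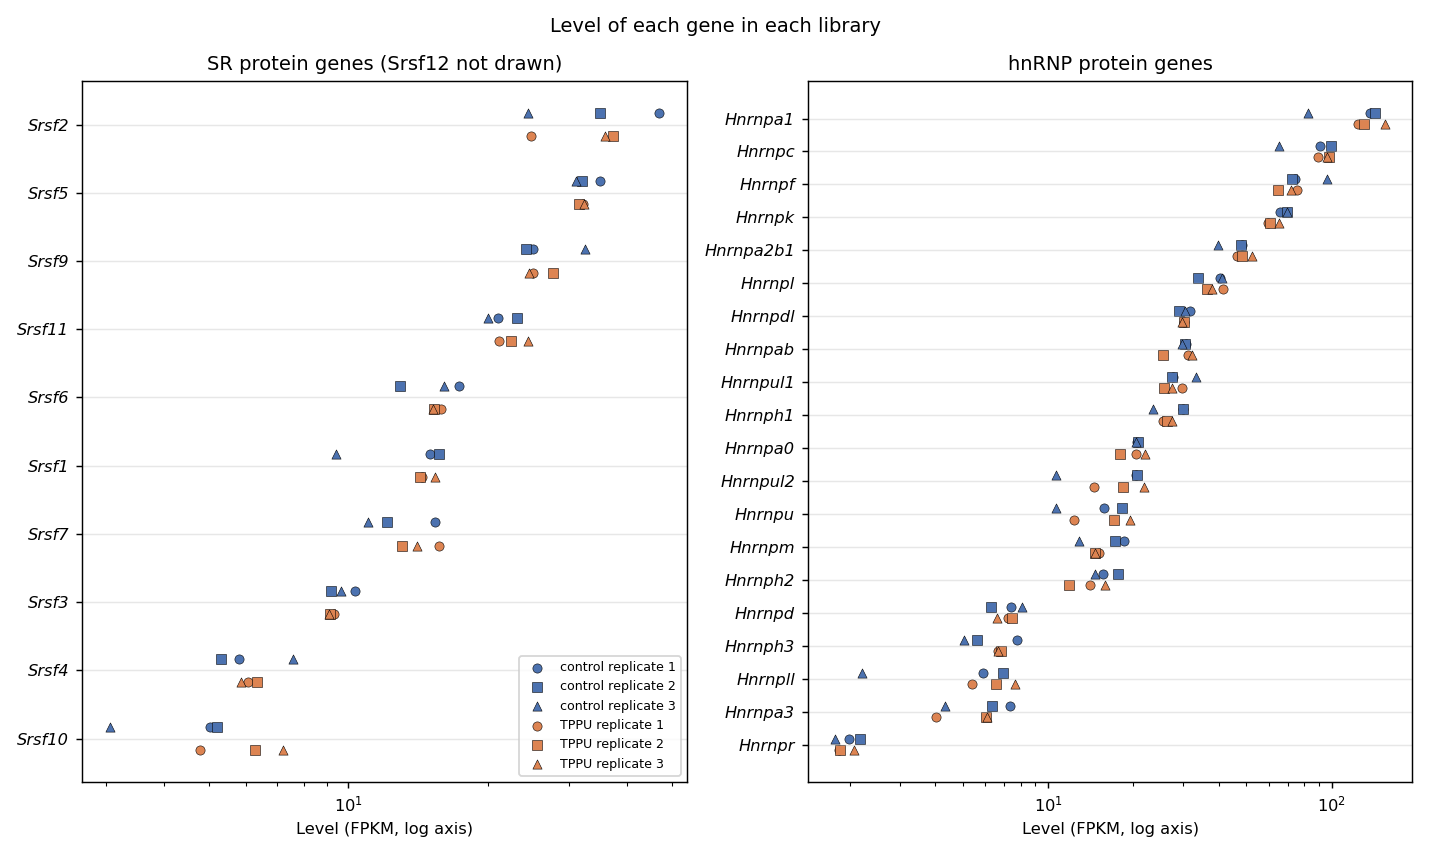
Level of each tested gene in FPKM (horizontal log axis) in each of the 6 libraries, SR genes on the left and hnRNP genes on the right, ordered by mean level. Colours mark the groups and symbols the replicates. Control and TPPU values overlap for every gene but Hnrnpk. Over all tested genes, 7.88% had all TPPU values lower and 7.48% had all TPPU values higher. Control replicate 3 (upward blue triangles) is the lowest value for 16 of the 30 genes, beside 27.7% of all tested genes.

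Among the SR genes, Srsf10 had the largest estimate of a change. It encodes an atypical SR protein that represses splicing when it is dephosphorylated, as after heat shock. The gene lies at chr4:135855747-135869908 (mm10, plus strand). Its levels were 5.03, 5.2 and 3.05 FPKM in control replicates 1, 2 and 3, and 4.79, 6.28 and 7.24 in TPPU replicates 1, 2 and 3. TPPU replicates 2 and 3 lay above all controls, and TPPU replicate 1 lay within the control range. The change did not pass the test (log2 change 0.40, 95% interval -0.06 to 0.85, limma adjusted p = 0.639), and without control replicate 3, the lowest value, it was 0.20. Without TPPU replicate 1 it was 0.54, without control replicate 2 it was 0.51, and with the GC trend removed it was 0.29. Its unadjusted limma p was under 0.05 in 4 of the alternative fits, and its lowest limma adjusted p was 0.241. In those 4 fits, 640 to 1910 of the tested genes had an unadjusted p under 0.05.

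The gene of the smallest SR protein, Srsf3, which also serves mRNA export, had a narrow spread. It measured 10.3, 9.19 and 9.64 FPKM in control against 9.31, 9.14 and 9.08 with TPPU (log2 change -0.07, 95% interval -0.30 to 0.15, limma adjusted p = 0.849). All TPPU values lay in the lower part of the control range or under it. Srsf7, a related export adaptor with a zinc knuckle, measured 15.4, 12.1 and 11 in control against 15.7, 13 and 14.1 with TPPU, and its groups overlapped (log2 change 0.15, 95% interval -0.17 to 0.46, limma adjusted p = 0.784). The estimate was 0.05 without control replicate 3, 0.28 without control replicate 1 and 0.03 with the GC trend removed.

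Srsf1 and Srsf2, which encode the founding members of the family, each had libraries that stood apart from the rest. Srsf1 measured 15, 15.7 and 9.4 FPKM in control against 14.4, 14.3 and 15.4 with TPPU (log2 change 0.16, or -0.06 without control replicate 3). Control replicate 3 was the low value, and the other 5 lay between 14.3 and 15.7. Srsf2, whose protein marks nuclear speckles and is mutated in human myeloid neoplasms, measured 46.9, 35 and 24.4 in control against 24.8, 37.2 and 35.7 with TPPU. Control replicate 3 and TPPU replicate 1 were its lowest values, control replicate 1 its highest, and the change of -0.09 was -0.33 without control replicate 3. For neither gene did the change pass (limma adjusted p = 0.825 and 0.926).

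The remaining SR genes had estimates close to 0. Srsf5, an SR gene known as a growth-induced transcript, measured 34.9, 32 and 31.1 FPKM in control against 32.1, 31.4 and 32.3 with TPPU, with a change of -0.03. Srsf4, Srsf6, Srsf9 and Srsf11, which encode further SR proteins, had estimates of -0.02, 0.01, -0.07 and 0.08, with limma adjusted p from 0.838 to 0.98. Srsf9 ran over 24.2 to 32.4 FPKM in control and 24.5 to 27.6 with TPPU, with control replicate 3 highest, and Srsf4, at 5.3 to 7.6 FPKM in control and 5.87 to 6.35 with TPPU, had the same library highest. Srsf6 ran over 12.9 to 17.3 FPKM in control and 15.2 to 15.9 with TPPU, and Srsf11 over 20 to 23.1 FPKM in control and 21.1 to 24.5 with TPPU. The groups of these 4 genes overlapped. Srsf12, which encodes a splicing repressor related to Srsf10, did not pass the filter. It was listed at 0 in 5 libraries and at 0.0698 FPKM in TPPU replicate 1 (exact two-sided permutation test p = 1). With a value above 0 in a single library that p is fixed in advance, so the test could not detect a difference. A level of 3 fragments in a transcript of its length corresponds to 0.0441 to 0.0568 FPKM at the depths estimated here.

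Hnrnpk was the single gene of the 31 whose groups did not overlap. Its protein binds cytosine-rich RNA and DNA through KH domains and takes part in splicing, transcription and translation. The gene (chr13:58391142-58403343, mm10, minus strand) measured 66, 69.6 and 69.6 FPKM in control against 59.8, 60.6 and 65.5 with TPPU, means of 68.4 ± 2.11 and 62 ± 3.07 (SD, n = 3 each). All TPPU values were lower, the closest pair being 65.5 with TPPU and 66 in control. The change did not pass the test (log2 change -0.14, 95% interval -0.33 to 0.05, limma adjusted p = 0.69). With the GC trend removed from each library the estimate was -0.25 (limma adjusted p = 0.423). Such full separation, with TPPU lower, was seen in 1 of the 30 genes and in 7.88% of all tested genes. With TPPU higher it was seen in 0 of 30 and in 7.48%.

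The genes of the A/B group, whose best known member Hnrnpa1 favours exon skipping, were divided in sign. Hnrnpa1 measured 136, 142 and 82.4 FPKM in control against 124, 130.3 and 154 with TPPU. Control replicate 3 was far below the other 5 libraries, and the change of 0.21 turned to -0.04 without it. Hnrnpa2b1, whose protein also sorts RNA and senses viral DNA in the nucleus, measured 48.2, 47.8 and 39.8 in control against 46.4, 48.5 and 52.3 with TPPU, a change of 0.12 that was 0.03 without control replicate 3 and 0.02 with the GC trend removed. The estimates were -0.13 for Hnrnpa3, -0.03 for Hnrnpa0, whose protein binds AU-rich elements of inflammatory mRNAs, and -0.04 for Hnrnpab. Hnrnpa3 ran over 4.35 to 7.32 FPKM in control and 4.03 to 6.11 with TPPU, with TPPU replicate 1 and control replicate 3 lowest, and its estimate was -0.31 without the latter. Hnrnpa0 stood at 20.4 to 20.7 FPKM in control and 18 to 21.9 with TPPU, and Hnrnpab at 29.8 to 30.8 FPKM in control and 25.4 to 32.3 with TPPU, with TPPU replicate 2 the low value of both. Hnrnpa1 has many processed copies in the mouse genome, so its level depends on how shared reads were counted, which is not given in the sources used here.

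The genes of proteins that bind AU-rich or uridine-rich RNA had no change that passed the test. Hnrnpd, which encodes the decay factor AUF1 of cytokine mRNAs, measured 7.26 ± 0.905 FPKM in control and 7.11 ± 0.449 with TPPU (SD, n = 3 each). Its relative Hnrnpdl was the steadiest of the 30 genes, between 29.1 and 31.6 in the 6 libraries. Hnrnpc, whose protein binds uridine tracts and packages nascent RNA, measured 90.8, 99.5 and 65.5 in control against 89.5, 97.7 and 96.3 with TPPU, and its change of 0.17 was -0.01 without control replicate 3.

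In the F/H group, whose proteins bind runs of guanine, 3 of 4 estimates were negative and none passed the test. Hnrnpf measured 74.6, 72.4 and 96 FPKM in control against 75.3, 64.8 and 71.7 with TPPU (log2 change -0.19, 95% interval -0.47 to 0.10, limma adjusted p = 0.718). Control replicate 3 was its highest value, and without that library the change was -0.06. The estimates for Hnrnph1, Hnrnph2 and Hnrnph3 were -0.06, -0.19 and 0.13. Hnrnph2 measured 15.6, 17.6 and 14.6 in control against 14, 11.9 and 15.9 with TPPU, and its groups overlapped (log2 change -0.19, 95% interval -0.48 to 0.11, limma adjusted p = 0.718). Its estimate was -0.08 without TPPU replicate 2 and -0.30 with the GC trend removed (limma adjusted p = 0.38). The estimate for Hnrnph3 was 0.02 without control replicate 3 and 0.28 without control replicate 1. Without control replicate 3 Hnrnph1 stood at 30 and 29.8 in control against 25.5, 26.4 and 27.4 with TPPU, with no overlap and a change of -0.17 (limma adjusted p = 0.454).

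Hnrnpm encodes a splicing factor known to restrain Il6 expression in macrophages. It measured 18.6, 17.2 and 12.9 FPKM in control against 15.1, 14.6 and 14.6 with TPPU (log2 change -0.11, 95% interval -0.42 to 0.20, limma adjusted p = 0.84). The TPPU values lay close together, below control replicates 1 and 2 and above control replicate 3. Without control replicate 3 the change was -0.26 (limma adjusted p = 0.337). In that comparison of 2 with 3 libraries, all TPPU values lay below both controls for 4 of the 30 genes (Hnrnpk, Hnrnph1, Hnrnpa3 and Hnrnpm), beside 12.4% of all tested genes, and above them for 1 (Srsf4), beside 17%.

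Among the genes of the other hnRNP proteins, Hnrnpll had the largest estimate and the widest spread of the 30 tested. Its protein drives the exon exclusion in CD45 transcripts of activated lymphocytes. The gene lies at chr17:80029487-80062334 (mm10, minus strand). Its levels were 5.88, 6.92 and 2.2 FPKM in control against 5.41, 6.58 and 7.64 with TPPU (log2 change 0.42, 95% interval -0.29 to 1.13, limma adjusted p = 0.735). Control replicate 3 was the low value, and without it the change was 0.02. Hnrnpu, which encodes a chromatin-associated scaffold protein, measured 15.7, 18.2 and 10.6 in control against 12.3, 17 and 19.4 with TPPU, with control replicate 3 and TPPU replicate 1 lowest. Its estimate was 0.13, or -0.08 without control replicate 3. Hnrnpul2, whose protein is related to that of Hnrnpu, measured 20.5, 20.6 and 10.6 in control against 14.5, 18.5 and 21.8 with TPPU, and the same libraries were lowest (estimate 0.12, or -0.18 without control replicate 3). The value of 10.6 in control replicate 3 is the same number to 4 decimals for Hnrnpu and Hnrnpul2. Hnrnpl, whose protein binds CA-rich RNA, measured 40.5, 33.7 and 41.1 in control against 41.3, 36.4 and 37.9 with TPPU, with overlapping groups and an estimate of 0.01. The estimates for Hnrnpul1 and Hnrnpr were -0.09 and -0.03, and Hnrnpul1 ran over 27.3 to 33.2 FPKM in control and 25.6 to 29.6 with TPPU.

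Control replicate 3 was the lowest library more often, and the highest less often, for SR and hnRNP genes than for all tested genes. It was the lowest of the 6 libraries for 16 of the 30 genes, beside 27.7% of all tested genes, and the highest for 5, beside 34.8%. Other splicing genes, taken up below, shared part of this. The library was lowest for 9 of 20 SR-related genes, 5 of 12 kinases and transport factors and 10 of 27 other RNA-binding regulators. It was lowest for 5 of 19 snRNP core genes, 3 of 14 branch point factors and 3 of 15 nonsense-mediated decay genes. The median difference between control replicate 3 and the mean of the other 5 libraries, on the log2(FPKM + 1) scale, was -0.11 for SR genes, -0.17 for hnRNP genes and 0.05 for all tested genes. It was -0.125 for the SR-related genes and -0.07 to 0.11 for the other lists. The largest such differences of the 30 genes were -1.22 for Hnrnpll, -0.78 for Hnrnpul2, -0.73 for Hnrnpa1 and -0.71 for Srsf10. Hnrnpf, Srsf9, Srsf4 and Hnrnpul1 went the other way, at 0.42, 0.35, 0.32 and 0.26. With this library in the control group, the median coefficient of variation of the SR genes was 17.1% in control and 5.37% with TPPU, and that of the hnRNP genes 12.9% and 7.19%, beside 13.9% and 9.18% over all tested genes.

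**Figure D3:**
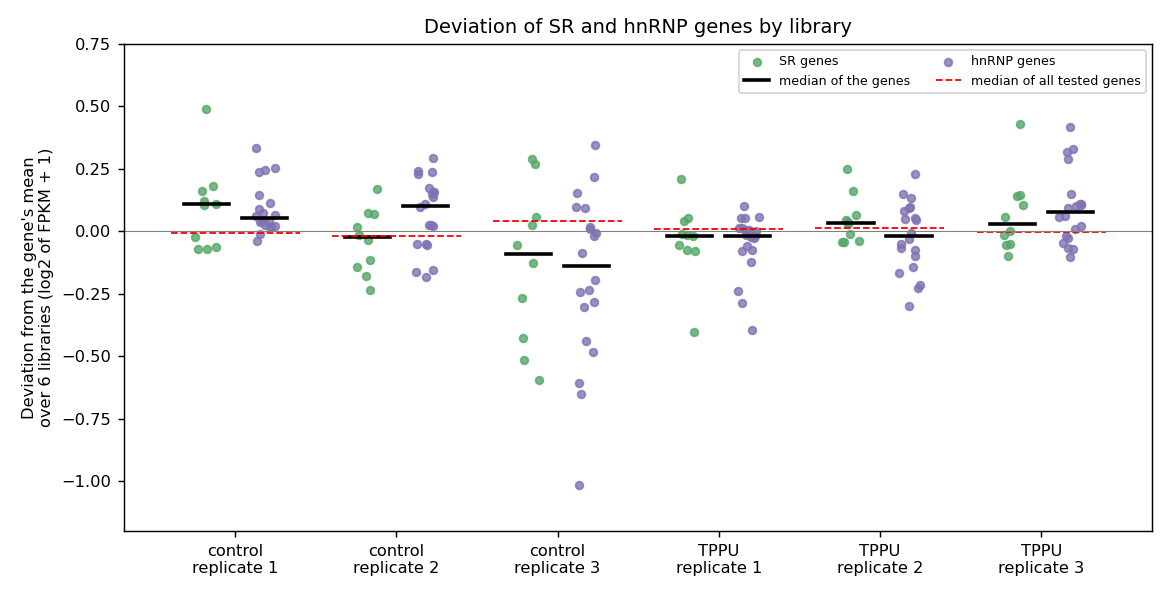
Deviation of each tested SR and hnRNP gene from its own mean over the 6 libraries (vertical axis, log2 of FPKM + 1), by library. Points are genes, black bars the median of each family and dashed red lines the median of all tested genes. In control replicate 3 the median is -0.09 for SR and -0.14 for hnRNP genes, both under the 0.04 of all tested genes, and the lowest point is Hnrnpll.

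Several traits of the libraries moved with this pattern. Over all tested genes with an annotation, deviations in control replicate 3 rose with the GC content of the transcript (Spearman's rho 0.61 across 9512 genes of 1 library, genes not being replicates), and rho was 0.25 in TPPU replicate 1 and -0.46 to -0.18 in the other 4. Among the 30 SR and hnRNP genes the same relation in control replicate 3 was weak (rho 0.14, Pearson's r 0.21, a description across genes of 1 library). Their transcripts were lower in GC than the rest, with medians of 44.2% for SR and 45.4% for hnRNP genes against 50.5%. Control replicate 3 also held the lowest share of mitochondrially encoded transcripts, 0.371% of summed FPKM, followed by TPPU replicate 1 with 0.914%, while the other 4 libraries held 1.46% to 1.85%. With a trend on GC removed from each library, the family medians were -0.02 and -0.04, and 0 of 30 genes passed. The part of GC content and of RNA quality in the levels of single genes was not tested.

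In 4 chosen pairs of related genes, the levels separated in control replicate 3. The pairs were chosen after their values were seen and are a description. The ratio of Hnrnpl to Hnrnpll was 6.88, 4.87 and 18.7 in control replicates 1, 2 and 3, and 7.63, 5.53 and 4.96 in TPPU replicates 1, 2 and 3. For Hnrnpul1 to Hnrnpul2 the ratios were 1.35, 1.33 and 3.11 in control against 2.04, 1.39 and 1.26 with TPPU. Hnrnpf to Hnrnph1 gave 2.49, 2.43 and 4.09 in control against 2.95, 2.46 and 2.62 with TPPU, and Srsf9 to Srsf1 gave 1.67, 1.54 and 3.44 in control against 1.74, 1.94 and 1.59. In each of the 4 pairs control replicate 3 had the highest ratio, and in 3 of them TPPU replicate 1 came next, the exception being Srsf9 to Srsf1. In these chosen pairs the first gene had the higher share of codons ending in G or C. It was 64.7% against 47.2% for Hnrnpl and Hnrnpll, and 61.4% against 56.8% for Hnrnpul1 and Hnrnpul2. Related genes outside these pairs did not all follow. Hnrnpu had a lower share than Hnrnpul2, 50.1% against 56.8%. Yet it equalled Hnrnpul2 in control replicate 3 and lay below it in every other library. Over the 30 tested SR and hnRNP genes, this share was only weakly related to the deviation in control replicate 3. Pearson's r was 0.23, a description across genes of 1 library. The part of this share in the ratios was not tested.

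The 30 codons over which Hnrnpl and Hnrnpll, and Hnrnpul1 and Hnrnpul2, are most alike are shown so that the pairs can be compared. Capitals mark the bases that differ within a pair. The stretches lie at chr7:28813351-28813896 (plus strand, 2 exons), chr17:80050823-80053569 (minus strand, 2 exons), chr7:25754546-25754635 (minus strand, 1 exon) and chr19:8820282-8820371 (plus strand, 1 exon). In these stretches, 69 of 90 bases matched between Hnrnpl and Hnrnpll, with 12 of the 21 differences at the last base of a codon, and 64 of 90 between Hnrnpul1 and Hnrnpul2, with 18 of 26 there.
Hnrnpl: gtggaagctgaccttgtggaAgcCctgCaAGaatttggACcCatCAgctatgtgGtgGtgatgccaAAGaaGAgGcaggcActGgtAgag
Hnrnpll: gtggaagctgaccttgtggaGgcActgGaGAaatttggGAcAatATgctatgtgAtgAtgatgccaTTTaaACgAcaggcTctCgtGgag
Hnrnpul1: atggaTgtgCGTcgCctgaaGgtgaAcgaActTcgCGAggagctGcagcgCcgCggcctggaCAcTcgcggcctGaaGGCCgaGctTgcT
Hnrnpul2: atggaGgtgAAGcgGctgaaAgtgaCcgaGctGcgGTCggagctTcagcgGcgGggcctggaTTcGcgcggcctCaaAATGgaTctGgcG

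**Figure D4:**
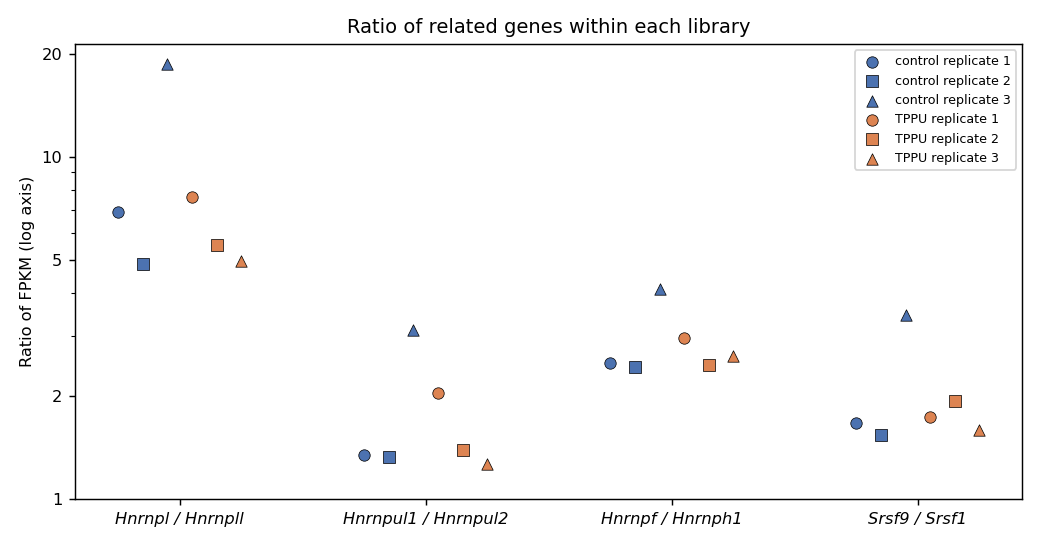
Ratio of FPKM within each library (vertical log axis) for 4 pairs of related genes. Colours mark the groups and symbols the replicates. Control replicate 3 has the highest ratio in every pair, reaching 18.7 for Hnrnpl to Hnrnpll, while the other control and TPPU values overlap.

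No other splicing gene that was examined passed the test. Over 6 lists of other splicing and decay genes, 107 of 120 genes passed the filter, 0 were called by limma, and 1 was higher and 4 lower at an unadjusted p under 0.05 (4.67%, beside 7.89% of all tested genes). All TPPU values lay above all controls for 5 of the 107 and below them for 9, beside 7.48% and 7.88% of all tested genes. The genes named from each list were taken for their small p, so a lack of overlap in them is no separate result. List medians ran from -0.05 for the kinases and transport factors of SR proteins to 0.07 for the snRNP core, the Sm and U snRNP proteins of the spliceosome. In the snRNP core, Snrpd2, an Sm protein gene, measured 12.1, 12.6 and 13.5 FPKM in control against 20.7, 16.1 and 19.3 with TPPU (log2 change 0.51 with SE 0.12, limma adjusted p = 0.397), with no overlap. Among the branch point and 3' splice site factors, Sf3b4, a subunit of the U2-binding complex SF3b, measured 84.6, 83.7 and 86.4 in control against 73.5, 67.5 and 62.9 with TPPU (log2 change -0.32 with SE 0.09, limma adjusted p = 0.466), also with no overlap. Sf3a2, a subunit gene of the partner complex SF3a, stood at 13.7, 15.5 and 18 in control against 13.3, 11.9 and 12.2 with TPPU.

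Partners that act directly with SR proteins gave no call either. For 20 SR-related genes the median change was -0.01, with 10 positive and 10 negative. Tra2b, whose protein binds exonic enhancers beside SR proteins, measured 16.2 ± 2.08 FPKM in control and 14.3 ± 0.579 with TPPU (SD, n = 3 each). For the 12 tested kinases and transport factors 5 changes were positive and 7 negative, and Clk3, an SR protein kinase gene, was at 25.1 ± 1.52 in control and 22.7 ± 1.22 with TPPU. Of 27 other RNA-binding regulators 11 changes were positive and 16 negative. Of 15 genes of nonsense-mediated decay, which removes decay isoforms of both families, 7 were positive and 8 negative. Casc3, a subunit gene of the exon junction complex, stood at 25.7, 26.7 and 28.2 in control against 23.3, 23 and 20.8 with TPPU, without overlap (limma adjusted p = 0.564).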

How the data were processed

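The authors deposited 1 table of FPKM for 18019 gene symbols in 6 libraries. Its name gives the unit, and the submitters' processing notes name mm10 as the build. For the aligner, counter, annotation and filters the sources used here give nothing. Trizol-extracted, oligo(dT)-selected RNA was made into dUTP-marked libraries, per the labels' protocols. Each column was assigned by the library name that a sample's description gives.

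The members and lists were chosen with earlier results of these data known. Every member was named, and of each other list at most 4 tested genes with the smallest p. The filter required 1 FPKM or more in 3 or more of the 6 libraries. Tests ran on log2(FPKM + 1), a scale that understates the change of low genes, with limma 3.58.1 (R 4.3.3), a mean-variance trend, group as the sole term, two-sided tests and Benjamini-Hochberg adjustment over 9728 genes. Intervals are 95% intervals of that fit. No count model or set test was run.

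Depth was estimated from the steps of low FPKM in 3026 genes with 1 annotated transcript. Between 93.3% and 95.2% of those values were whole within 0.1 of a fragment, where 20% would be by chance. It limits counting error only. Positions, GC content and coding sequences are those of GENCODE M21 (mm10, 1-based), using the transcript with the longest coding sequence, and 97.8% of tested genes had one. RefSeq sequences were not used. Some results and 1 sequence are not reported here. The fit was tested on simulated data. Alternatives were other offsets (0.1 and 0.5 FPKM), filters, scalings and weights, the replicate number as a block, removal of a GC or length trend (loess span 0.3) and each library left out. Overlap without control replicate 3 was added after the data were seen. Python packages were matplotlib 3.10.9, scipy 1.17.1, pandas 2.3.3 and numpy 2.4.6.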

Additional observations from a re-analysis of the deposited data

How the results depend on the processing

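Calls for SR and hnRNP genes stayed at 0 in all 17 alternatives, with a lowest limma adjusted p of 0.106 (Hnrnpm, sample quality weights). At most 3 of the 30 genes had an unadjusted p under 0.05, with sample quality weights and with the GC trend removed. In those fits 1910 of 9728 and 1238 of 9514 tested genes had such a p. Over all tested genes, sample quality weights gave 89 higher and 80 lower calls. Those weights were 3.84, 0.826 and 0.191 for control replicates 1, 2 and 3, and 0.715, 2.01 and 1.15 for TPPU replicates 1, 2 and 3. The control level in that fit therefore rested mainly on control replicate 1. Leaving out single libraries gave 0 to 5 higher and 0 to 1 lower calls, those calls coming without TPPU replicate 1. The replicate block left the family medians at -0.0025 and -0.026 with 0 calls, beside 513 genes at an unadjusted p under 0.05. The labels give no pairing of the replicate numbers, so the numbers were not taken as pairs. Deviations of same-numbered libraries from their group means had correlations of -0.30, 0.15 and -0.40. Control replicate 3 and TPPU replicate 1 had 0.51. Deviations from a mean of 3 libraries constrain one another, so these correlations cannot decide whether the libraries were paired. The SR median ran from -0.059 to 0.082 with single libraries left out, highest without control replicate 1 and lowest without control replicate 2, and the hnRNP median from -0.047 to 0.014.

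Of 509 values of SR and hnRNP genes under the alternatives, 40 had the opposite sign to the estimate on all libraries, in 21 genes, and the cause was not tested. The other 9 genes kept their sign. With sample quality weights the values of opposite sign were Hnrnpl -0.057, Srsf6 -0.092, Srsf1 -0.021, Hnrnph3 -0.089, Srsf7 -0.076, Srsf4 0.080, Srsf9 0.055 and Hnrnpul2 -0.10. With quantile normalization they were Hnrnpl -0.0052 and Srsf6 -0.0068, with the GC trend removed Srsf6 -0.095, Srsf4 0.020 and Srsf11 -0.0075, and with the length trend removed Hnrnpl -0.023. With single libraries left out, SR genes ran from -0.10 to 0.093 (Srsf6), -0.060 to 0.28 (Srsf1), -0.062 to 0.019 (Srsf5), -0.11 to 0.12 (Srsf4), -0.14 to 0.058 (Srsf9) and -0.33 to 0.13 (Srsf2). The hnRNP genes ran from -0.11 to 0.050 (Hnrnpd), -0.094 to 0.041 (Hnrnpa0), -0.083 to 0.057 (Hnrnpl), -0.11 to 0.060 (Hnrnpab), -0.049 to 0.0088 (Hnrnpdl), -0.077 to 0.31 (Hnrnpu), -0.14 to 0.0022 (Hnrnpul1), -0.038 to 0.35 (Hnrnpa1), -0.31 to 0.040 (Hnrnpa3), -0.0095 to 0.29 (Hnrnpc), -0.080 to 0.018 (Hnrnpr) and -0.18 to 0.26 (Hnrnpul2). The positive estimates of Hnrnpa1, Hnrnpc, Hnrnpu, Hnrnpul2 and Srsf1 turned negative without control replicate 3. The half-width of the intervals had a median of 0.29 on all libraries, 0.23 without control replicate 3 and 0.32 to 0.36 without any other library.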
